A study of Homo sapiens with 6 samples.

Results

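The genes described here are 10 that drive and police mitosis: the kinases CDK1, PLK1 and AURKA, the 4 subunits of the chromosomal passenger complex (AURKB, INCENP, BIRC5 and CDCA8), and the spindle checkpoint genes BUB1, BUB1B and TTK. They were chosen by name, and each was represented by the array row that the platform annotation gives to that gene alone, the brightest row where a gene has several. Each of the 10 had exactly 1 row, out of 15949 genes and 18708 rows (transcript clusters, each summarising several probe sets of a region) in the table. Of the 18708 rows, 1747 carry no gene symbol and 674 carry several. For 9 members the annotation carries the present symbol. The row of CDK1 carries its former symbol CDC2, which is also an old alias of POLD1, a gene with a row under its own name.

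The samples were PLC/PRF/5 cells, an established human hepatocellular carcinoma line, harvested 48 h after transfection. In the siSLU7 group (3 arrays) the cells had received siRNAs against SLU7, a splicing factor of the second catalytic step. In the control group (3 arrays) they had received an irrelevant siRNA labelled siGL, so that all samples were transfected. The design text names siGL2, while the sample descriptions read siGL1 to siGL3. The digits in the descriptions were read as replicate numbers, and whether they name different siRNAs could not be settled. Each sample was hybridised to a single Human Exon 1.0 ST array, and every value below is a log2 expression level from that array unless it is called a difference. No label tells whether the replicates were separate cultures, and the p-values therefore reflect array-to-array spread that may be technical.

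Entry into mitosis is set off by CDK1 bound to cyclin B. PLK1 and AURKA act beside it on centrosomes and the spindle poles. The passenger complex moves from inner centromeres to the spindle midzone, where AURKB is the enzyme, INCENP the scaffold, and survivin (BIRC5) and borealin (CDCA8) the targeting subunits. TTK, BUB1 and BUBR1 (BUB1B) work at kinetochores that are not yet attached to microtubules and hold back the anaphase-promoting complex. These genes are transcribed mainly in G2 and M phase, so in a population of cells their mRNA levels are known to follow the share of cells in those phases. In such bulk samples fewer cells in a phase and less RNA per cell cannot be told apart.

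One sequence feature that such genes share is the cell cycle genes homology region (CHR), with the letters TTTGAA, which is known as a contact site of the MuvB complex, close to the transcription start. Promoters from RefSeq (build GRCh38.p14, 250 bases before to 50 after a start) were found for 7 of the 10 members, and AURKA, BIRC5 and TTK had no entry. TTTGAA on either strand was present for 5 of the 7 (CDK1, PLK1, INCENP, CDCA8 and BUB1B), against 15.2% of all 35116 promoters of the same length and 15.7% of the 12748 measured genes with an entry. AURKB and BUB1 held none in this window. The stretches below run from 80 bases before to 20 after the start on the plus strand and show each forward TTTGAA in capitals, because it is what these 5 members have in common. They lie at chr10:60778398-60778497 (CDK1, at its second listed start), chr16:23678809-23678908 (PLK1), chr11:62123931-62124030 (INCENP), chr1:37692436-37692535 (CDCA8) and chr15:40160989-40161088 (BUB1B).
CDK1: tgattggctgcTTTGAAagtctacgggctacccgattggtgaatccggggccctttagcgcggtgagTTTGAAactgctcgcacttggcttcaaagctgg
PLK1: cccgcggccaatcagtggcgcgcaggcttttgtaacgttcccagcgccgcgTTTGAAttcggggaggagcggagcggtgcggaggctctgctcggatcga
INCENP: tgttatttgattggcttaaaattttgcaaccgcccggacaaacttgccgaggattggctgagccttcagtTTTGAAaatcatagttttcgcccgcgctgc
CDCA8: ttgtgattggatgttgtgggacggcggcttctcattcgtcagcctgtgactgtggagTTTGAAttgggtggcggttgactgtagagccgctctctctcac
BUB1B: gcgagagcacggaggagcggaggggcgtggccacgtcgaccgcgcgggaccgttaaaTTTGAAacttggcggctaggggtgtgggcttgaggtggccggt

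Counted from the start, with -1 as the last base before it, the capitals begin at base -29 in PLK1, at -23 in CDCA8 and BUB1B, at -10 in INCENP, and at -69 and -13 in CDK1. The CCAAT box (CCAAT on either strand), the letters bound by NF-Y, was found for 6 of the 7 members with an entry, all but BUB1B, against 34.6% of all promoters and 42.9% of the measured genes with an entry. In CDCA8 a reverse CCAAT begins at base -18, on the last base of the TTTGAA. A match is a stretch of letters and was not tested as a binding site.

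SLU7 itself, the target of the siRNA, was at 5.84, 5.58 and 6.21 in the siSLU7 arrays (replicates 1 to 3), against 7.89, 7.01 and 7.24 in the control arrays. Every siSLU7 array lay below every control array, by -1.51 ± 0.31 (SE) log2 units on average, which leaves 35.2% of the control level. Its limma adjusted p over all clusters was 0.0783, and the exact two-sided permutation test gave 0.1, the smallest p that 3 arrays against 3 allow. Every row whose groups do not overlap reaches that permutation p, and such rows made up 18.9% of clusters.

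Between arrays, the deepest split did not follow the siRNA. On the first principal component, which held 36.6% of the variance, siSLU7 replicate 1 and control replicate 2 stood apart from the other 4 arrays. Among markers of the labelled cell type, 10 of 13 measured hepatocyte genes lay above the lower quartile of the arrays (4.86 to 4.98), with TF at 12.06 and APOA1 at 11.08 over all arrays. ALB, the defining hepatocyte product, was dim at 3.47, and AFP averaged 5.61. All 13 hepatocyte genes differed downward after SLU7 siRNA, from -1.07 to -0.01 with a median difference of -0.46, and none was called. Of all 15949 genes, 8030 lay below 0. In 6 of the 13 the siSLU7 arrays lay wholly below the control arrays, beside 9.21% of clusters. The part of these markers in the results for the members was not tested. Of the markers of other cell types, 1 of 3 measured for blood cells lay above the highest quartile value (CD14 at 5.03, with PTPRC at 2.09), 3 of 6 for fibroblasts or stellate cells (PDGFRB highest at 8.30) and 4 of 4 for endothelial cells (5.24 to 6.94). The 4 endothelial markers also differed downward, from -0.29 to -0.23. None of the markers of other cell types was called.

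None of the 10 members passed the test over all clusters (limma, Benjamini-Hochberg adjusted p under 0.05), where 81 of 18708 clusters did, or 0.433%. At an unadjusted p under 0.05, 1 member passed (CDCA8), against 13.1% of clusters. The siSLU7 arrays lay wholly above the control arrays for 1 member, again CDCA8, and wholly below for none. Over the table such groups without overlap made up 18.9% of clusters, 9.64% with siSLU7 higher and 9.21% with siSLU7 lower, so that 1 of 10 members is no more than the table as a whole shows. The median difference of the members was 0.10 log2 units, with 7 of 10 above 0, beside 49.7% of all genes above 0. Without siSLU7 replicate 2 the median was 0.02, and without control replicate 2 it was 0.01, with 5 of 10 members above 0 each time.

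**Figure D1:**
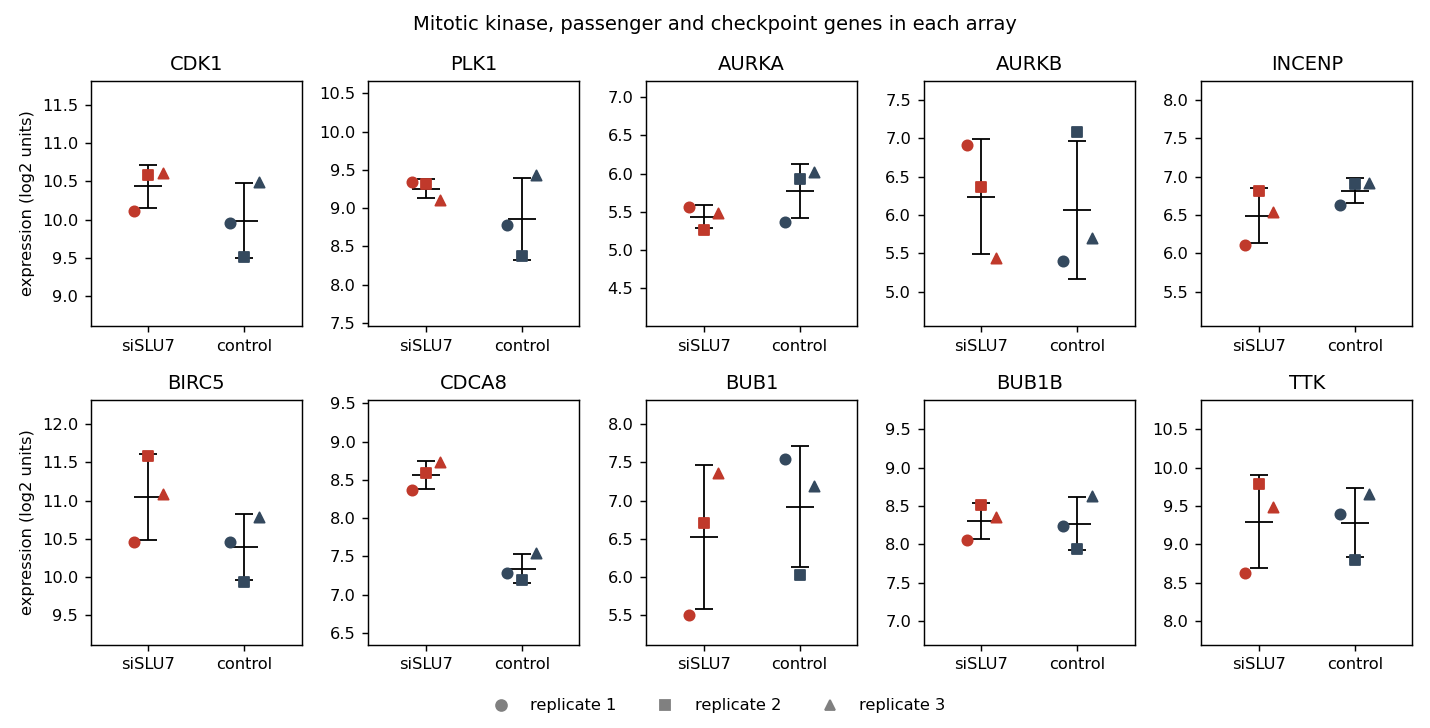
Expression of each member in log2 units (vertical axis, 3.2 units high in every panel) in the 3 siSLU7 arrays (left) and the 3 control arrays (right); marker shape gives the replicate, and the bar and whiskers the mean ± SD (n = 3). The groups lie apart without overlap for CDCA8, at 8.37 to 8.74 in siSLU7 and 7.19 to 7.55 in control, and overlap for the other 9.

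Of the 3 kinases, CDK1 and PLK1 averaged higher after SLU7 siRNA and AURKA lower, and none of these differences exceeded the spread between arrays by the limma test. CDK1, the kinase that starts mitosis, was at 10.11, 10.58 and 10.61 in the siSLU7 arrays, against 9.95, 9.51 and 10.49 in the control arrays. Only siSLU7 replicate 1 fell inside the control range, and the other siSLU7 arrays lay just above the highest control array. The difference was 0.45 ± 0.32 (SE) log2 units or 1.36-fold (95% interval 0.824 to 2.26), with a limma adjusted p of 0.649. It was 0.21 without control replicate 2 and 0.70 without control replicate 3.

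PLK1, a kinase that matures centrosomes and helps CDK1 switch on, was at 9.34, 9.31 and 9.11 in the siSLU7 arrays, against 8.78, 8.37 and 9.43 in the control arrays. The siSLU7 arrays sat close together, with an SD of 0.12, inside a control range that was far wider, with an SD of 0.53. The difference of 0.40 ± 0.31 (SE) log2 units had a limma adjusted p of 0.696. It was 0.97 between siSLU7 replicate 1 and control replicate 2 and 0.11 within the other 4 arrays, and 0.15 with control replicate 2, the lowest of the 6 arrays, left out, against 0.68 without control replicate 3.

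AURKA, the spindle pole kinase, was at 5.57, 5.27 and 5.48 in the siSLU7 arrays, against 5.37, 5.93 and 6.02 in the control arrays. Control replicate 1 lay among the siSLU7 arrays, and the other control arrays lay above them. The difference was -0.33 ± 0.27 (SE) log2 units, at a limma adjusted p of 0.712. It was -0.36 between siSLU7 replicate 1 and control replicate 2 and -0.32 within the other 4, and it was -0.53 when control replicate 1 was left out and -0.21 when control replicate 3 was. The row was among the dimmer of the table, since 34.3% of clusters had a lower mean.

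In the passenger complex no subunit passed the test over all clusters, and CDCA8 had the largest difference. CDCA8 (transcript cluster 2330794), which encodes borealin, was at 8.37, 8.59 and 8.74 in the siSLU7 arrays, against 7.28, 7.19 and 7.55 in the control arrays. The lowest siSLU7 array lay well above the highest control array, and both groups had an SD of 0.19 (n = 3). The difference was 1.23 ± 0.25 (SE) log2 units, or 2.34-fold (95% interval 1.58 to 3.47). Its limma adjusted p over all clusters was 0.0747, outside the threshold. Rows outside the members and lists had a similar limma adjusted p, such as PTPRF (0.0748) and ESPN (0.0716), both lower in siSLU7. The exact two-sided permutation p was 0.1, the smallest possible. Every row without overlap between the groups reaches that permutation p (18.9% of clusters), so it only restates the separation of the groups.

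The CDCA8 difference was 1.18 between siSLU7 replicate 1 and control replicate 2, and 1.25 in the remaining 4 arrays. When each array was left out in turn it ran from 1.14 to 1.33 log2 units, with limma adjusted p from 0.121 to 0.259. The following 4 settings put it past the threshold: without dim clusters (limma adjusted p = 0.0366, where 2.31% of clusters were called), with an intensity trend and robust shrinkage (0.0261, 2.36% called), with array weights (0.0268, 3.07% called), and with a block for the array split (0.0286, 4.19% called). Over all settings tried its adjusted p ran from 0.0261 to 0.266. Since the array split was itself taken from these data, the p-value of the last of these is likely too small. The array weights were also estimated from these arrays, and what that does to the p-value was not tested.

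BIRC5, which encodes survivin, was at 10.46, 11.58 and 11.09 in the siSLU7 arrays, against 10.46, 9.94 and 10.79 in the control arrays. Replicates 2 and 3 of siSLU7 lay above every control array, while siSLU7 replicate 1 was level with control replicate 1. The difference was 0.65 ± 0.36 (SE) log2 units or 1.57-fold (95% interval 0.889 to 2.76), at a limma adjusted p of 0.519. It was 0.38 without siSLU7 replicate 2, 0.42 without control replicate 2 and 0.94 without siSLU7 replicate 1.

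INCENP, the scaffold that binds and activates AURKB, was at 6.11, 6.82 and 6.54 in the siSLU7 arrays, against 6.63, 6.90 and 6.92 in the control arrays. Control replicate 1 was the only control array inside the siSLU7 range. The difference of -0.33 ± 0.27 (SE) log2 units had a limma adjusted p of 0.720. It was -0.79 between siSLU7 replicate 1 and control replicate 2, and -0.10 in the remaining 4 arrays. Without siSLU7 replicate 1 it was -0.14.

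AURKB, the enzyme of the complex, was at 6.92, 6.36 and 5.44 in the siSLU7 arrays, against 5.40, 7.09 and 5.70 in the control arrays. The groups overlapped over nearly their whole ranges, and the highest array of each was the one that stands apart. The difference was 0.18 ± 0.52 (SE) log2 units, at a limma adjusted p of 0.948. Its sign turned without siSLU7 replicate 1 (-0.16), without control replicate 1 (-0.15) and without control replicate 3 (-0.003).

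**Figure D2:**
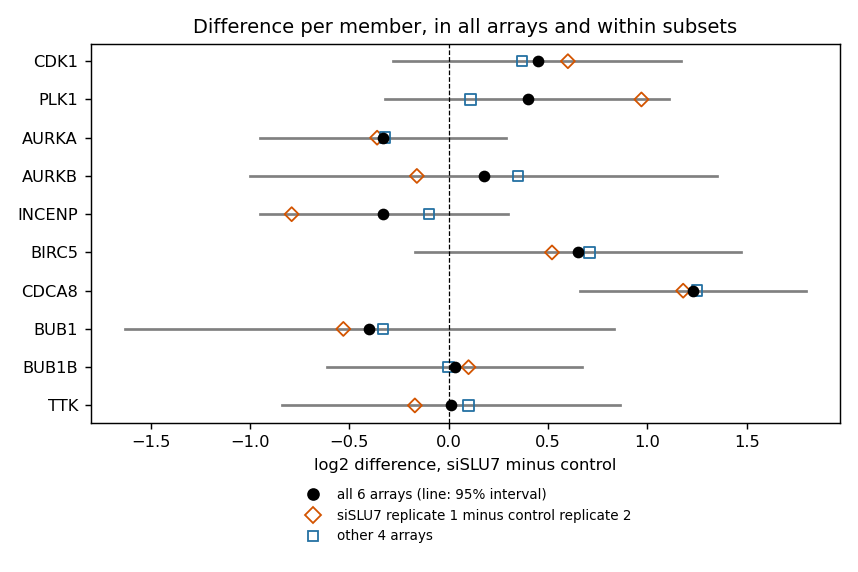
Log2 difference of each member (horizontal axis), siSLU7 minus control: black points use all 6 arrays with the 95% limma interval as a line, diamonds are siSLU7 replicate 1 minus control replicate 2, and squares the other 4 arrays. The interval leaves out 0 for CDCA8 (0.66 to 1.80) and holds 0 for the other 9; the 3 marks span 1.18 to 1.25 for CDCA8 and 0.11 to 0.97 for PLK1.

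The 3 checkpoint genes showed no difference between the groups that exceeded the spread within them. BUB1, a kinase that marks inner centromeres for the passenger complex, was at 5.50, 6.71 and 7.36 in the siSLU7 arrays, against 7.54, 6.03 and 7.19 in the control arrays. It had the widest spread of the members in siSLU7 (SD 0.94) and the second widest, after AURKB, in control (SD 0.79), and the lowest array of each group was the one that stands apart. The difference of -0.40 ± 0.54 (SE) log2 units had a limma adjusted p of 0.859, and turned to 0.11 without siSLU7 replicate 1.

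BUB1B, which encodes BUBR1, an inhibitor of the anaphase-promoting complex, was at 8.05, 8.51 and 8.35 in the siSLU7 arrays, against 8.24, 7.94 and 8.63 in the control arrays. All siSLU7 arrays lay within the control range. The difference was 0.03 ± 0.28 (SE) log2 units, at a limma adjusted p of 0.986, and its 95% interval ran from 0.656-fold to 1.59-fold.

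TTK, the kinase at the top of the checkpoint (MPS1), was at 8.62, 9.79 and 9.48 in the siSLU7 arrays, against 9.40, 8.79 and 9.66 in the control arrays. The highest and the lowest of all 6 arrays were both siSLU7 arrays. The difference was 0.01 ± 0.37 (SE) log2 units at a limma adjusted p of 0.997. Its 95% interval ran from 0.559-fold to 1.82-fold, which does not leave out changes of that size in either direction.

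Much of the variation of these genes lay within the groups. For 6 of the 10 members (CDK1, BIRC5, CDCA8, BUB1, BUB1B and TTK) the array that stands apart was the lowest of its group in both groups, where 23.3% of all genes had this pattern. For AURKB it was the highest in both groups, as for 29.3% of all genes. The first component was computed over all clusters, these among them, so this is a description. The shares over all genes are not matched for level: the median level was 8.12 for the members and 6.74 for all genes. The lower quartile was 4.98 in control replicate 2 and 4.97 in siSLU7 replicate 1, against 4.86 to 4.91 in the other arrays. Whether level plays a part in the pattern was not tested.

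Taken as the mean of the 2 arrays that stand apart minus the mean of the other 4, the median difference was -0.37 log2 units over the members and 0.10 over all genes. BUB1 was furthest down at -1.44, followed by TTK at -0.87, BIRC5 at -0.78 and CDK1 at -0.60, and AURKB was furthest up at 1.28. CDCA8 differed by -0.26 between these subsets, less than its difference of 1.23 between the siRNAs. The labels give no scan date, culture or passage for these 2 arrays. With the split as a block CDCA8 was the only member called, as given above.

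Of the 5 members with TTTGAA in the window searched, CDK1, CDCA8 and BUB1B were lowest in both of the arrays that stand apart within their groups, INCENP in siSLU7 replicate 1 alone and PLK1 in control replicate 2 alone. Of the 2 members with an entry and no match, BUB1 was lowest in both and AURKB highest in both. Among the members without an entry, BIRC5 and TTK were lowest in both and AURKA in neither. Over all genes 23.3% were lowest in both, and no share was computed for genes with TTTGAA. Whether the pattern goes with the motif was not tested.

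**Figure D3:**
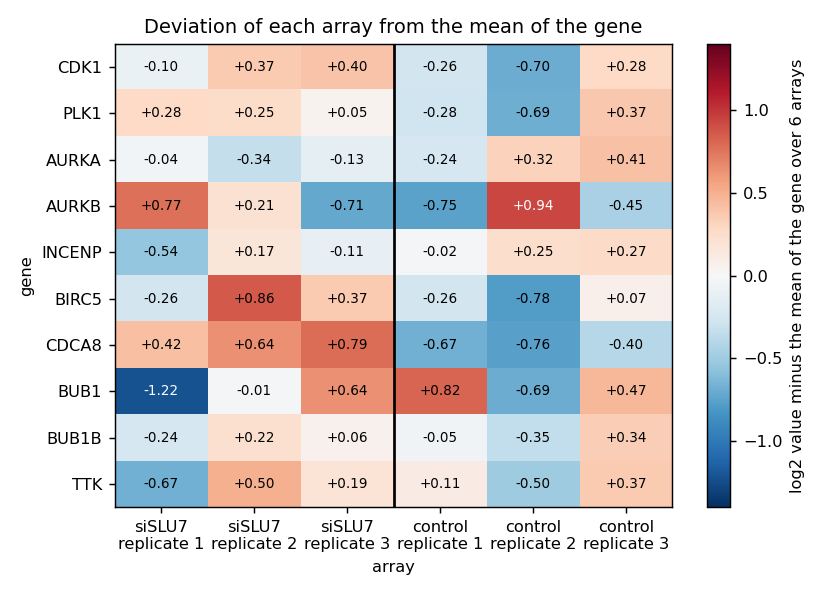
Colour and numbers give the log2 value of each member (rows) in each array (columns, siSLU7 left and control right of the line) minus the mean of that gene over the 6 arrays. CDCA8 is above its mean in all siSLU7 arrays and below it in all control arrays; in siSLU7 replicate 1 and control replicate 2 BUB1, TTK and CDK1 are below their means and AURKB is above.

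The genes whose 6 array values followed the median member most closely were ranked by the root mean square distance between centred profiles over the 6 arrays. The search covered 11577 genes eligible by level and range, and whether matches this close are unusual was not tested. The nearest were AKAP1, a mitochondrial anchor of protein kinase A, at 0.066 log2 units and MRPL39, a protein of the mitochondrial ribosome, at 0.082. RNF20 (0.088), BORA (0.088), URI1 (0.089), SORD (0.089), DDX50 (0.093) and GTPBP4 (0.094) followed. Of these 8, BORA is the cofactor through which AURKA activates PLK1, at 7.21, 7.63 and 7.40 in siSLU7 arrays and 7.13, 6.81 and 7.54 in control arrays. Among the members themselves, each set against the median of the other 9, CDK1 and BUB1B lay closest (0.18 for both) and AURKB furthest away (0.94), followed by BUB1 (0.70) and CDCA8 (0.57).

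Around the members, no gene of 7 lists of related function passed the limma test over all clusters in either direction, where 0.134% of clusters were called higher and 0.299% lower. Of 16 measured cyclins, phosphatases and other regulators of CDK1, 9 were above 0, with a median of 0.19. CKS2, a small adaptor of CDK1, averaged 11.50 ± 0.30 in siSLU7 and 10.37 ± 0.40 in control arrays (SD, n = 3), a difference of 1.13 at a limma adjusted p of 0.144, and CDKN3, a phosphatase of cyclin-dependent kinases, differed by -0.66 (limma adjusted p = 0.62). Among 21 measured activators and partners of Aurora and Polo kinases 15 were above 0 (median 0.26). HASPIN, the histone kinase whose mark recruits the passenger complex to centromeres, was at 6.87, 7.10 and 6.86 in siSLU7 arrays, against 5.82, 6.20 and 6.0 in control arrays. Its groups did not overlap, and the difference of 0.94 ± 0.24 (SE) had a limma adjusted p of 0.139. RACGAP1, a subunit of centralspindlin, differed by -0.39 (limma adjusted p = 0.603).

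In 6 of 31 measured kinetochore and checkpoint genes outside the members every siSLU7 array lay above every control array, and in none below, beside 9.64% and 9.21% of clusters. The same count was 4 of 20 above and 3 below in the anaphase-promoting complex list, and 3 of 16 above and none below among the CDK1 regulators. It was 2 of 21 above and none below among the Aurora and Polo partners, and 3 of 18 above and 1 below among the transcription factors. Of 22 replication genes 3 lay above and 4 below, and of 8 kinesins none did either. Those 6 kinetochore and checkpoint genes, named after their values were seen, were MAD1L1, MAD2L1BP, MIS12, SKA1, CENPA and HJURP. The median over the 31 was 0.17, with 23 above 0. MIS12, which links the outer kinetochore to centromeric chromatin, was at 8.75, 9.10 and 8.97 in siSLU7 arrays, against 7.40, 6.88 and 7.88 in control arrays. The difference of 1.56 ± 0.31 (SE) log2 units had a limma adjusted p of 0.0717, outside the threshold as for CDCA8. ZWILCH, a subunit of the complex that brings dynein to kinetochores, differed by -0.68 (limma adjusted p = 0.529).

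The anaphase-promoting complex and its regulators, the target of the checkpoint, had a median of 0.06 over 20 measured genes, with 12 above 0. Its subunits did not share a direction: ANAPC10 differed by 1.05 (limma adjusted p = 0.353) and ANAPC5 by -0.86 (limma adjusted p = 0.211). Among 18 measured transcription factors of G2 and M genes the median was 0.06. RBBP4, a histone-binding subunit of MuvB, differed by 1.08 (limma adjusted p = 0.151) and MYBL2, or B-MYB, by -0.56 (limma adjusted p = 0.394). RBBP4 was at 10.61, 11.03 and 10.9 in siSLU7 arrays, against 9.66, 9.43 and 10.22 in control arrays. MYBL2 was at 9.57, 9.92 and 9.60 in siSLU7 arrays, against 10.17, 10.11 and 10.5 in control arrays. Both genes were without overlap between groups.

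Replication genes, set beside the members because they are transcribed earlier in the cycle, had a median of -0.13 over 22 measured genes, with 9 above 0. ORC6 differed by 2.0 (limma adjusted p = 0.144) and CDC45 by -0.98 (limma adjusted p = 0.288), each without overlap between groups. Of 8 measured mitotic kinesins 4 were above 0, with a median of 0.05. KIF2C, a microtubule depolymerase that AURKB phosphorylates, differed by 0.87 (limma adjusted p = 0.485) and KIF18A by -0.54 (limma adjusted p = 0.66), both from rows that averaged below 5 log2 units in each group.

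In the arrays that stand apart, the medians of all 7 lists were below the all-gene median of 0.10, from -0.63 for the kinesins and -0.47 for the kinetochore genes to -0.15 for replication and -0.07 for the Aurora and Polo partners. The shares of genes lowest in both of these arrays within their groups ran from 42.9% in the Aurora and Polo partners to 60.0% in the anaphase-promoting complex, against 60.0% of the members and 23.3% of all genes. Here too level was not matched: the median level ran from 7.29 (Aurora and Polo partners) to 8.77 (replication) in the lists and was 6.74 over all genes. No list was tested against the others, so none of these medians can be called particular to its list.

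**Figure D4:**
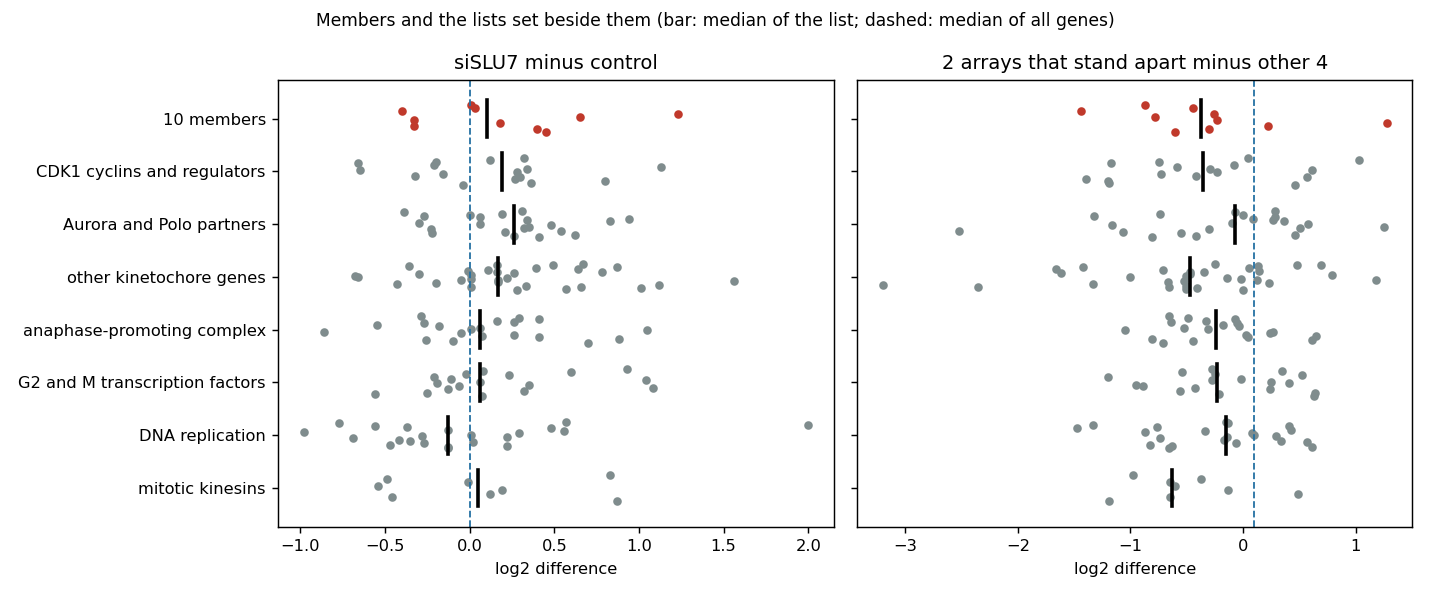
Log2 differences of single genes (points) for the 10 members and 7 lists (rows), siSLU7 minus control on the left and the 2 arrays that stand apart minus the other 4 on the right; bars are medians and the dashed line is the median of all genes. On the left the medians lie between -0.13 and 0.26, and on the right between -0.63 and -0.07, to the left of the dashed line at 0.10.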

How the data were processed

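Total RNA of 6 samples was measured on Human Exon 1.0 ST arrays. The table deposited by the authors holds log2 values, judging by their range. The submitters' processing notes name RMA, and the labels name the core chip definition of aroma.affymetrix. The genome build is not given in the sources used here, nor is whether all arrays went through RMA together. Since the row of a gene summarises its core probe sets, altered exon use could shift the level of that row.

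Rows were named from the platform annotation in GEO, and older symbols were updated through RefSeq names (2180 rows). Differences were fitted with limma (version 3.58.1, R 4.3.3; lmFit and eBayes, no trend, group alone in the model) on all 18708 rows, unfiltered, with Benjamini-Hochberg adjustment over all rows at 0.05. The fit was tested on simulated data. The median standard error of a difference was 0.312 log2 units, and the small number of arrays limits precision. Pairs of arrays correlated at 0.926 to 0.974, so none was a copy.

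The members and lists were chosen with earlier results of these data known. Named genes are all members, SLU7, the highest and lowest difference of each list (and any called), and the 8 closest profiles among genes above the lower quartile whose range is at least 0.5 times that of the median member. Alternatives were a replicate block, a filter on the dimmest 25% of rows, quantile normalization, median centring, array weights, a trend with robust shrinkage, a threshold of 0.01, averaging the rows of each gene, and omitting single arrays. Averaging rows could not change the value of a member, since each had 1 row. The array-split block and the analysis of 4 arrays were added after seeing the data.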

Additional observations from a re-analysis of the deposited data

How the results depend on the processing

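The count of 81 called clusters was 0 at a threshold of 0.01, with the replicate block, in the other 4 arrays alone and without any 1 array (0 to 0, with 1833 to 2573 clusters at an unadjusted p under 0.05 by limma). It was 324 without dim clusters, 441 with trend and robust shrinkage, 575 with array weights and 783 with the array-split block, and in each of these 4 settings 1 member was called, CDCA8, with SLU7 also past the threshold (limma adjusted p from 0.0269 with array weights to 0.043 with the array-split block, in a range of 0.0269 to 0.272 over all settings). The median member difference ran from 0.01 (without control replicate 2) to 0.25 (without siSLU7 replicate 1). Small differences turned sign: BUB1B with array weights (-0.01), in the other 4 arrays (-0.005) and without siSLU7 replicate 2 (-0.07) or control replicate 2 (-0.13), TTK without siSLU7 replicate 2 (-0.23), siSLU7 replicate 3 (-0.08) or control replicate 2 (-0.23), BUB1 without siSLU7 replicate 1 (0.11), and AURKB without siSLU7 replicate 1 (-0.16), control replicate 1 (-0.15) or control replicate 3 (-0.003). With each array left out in turn the ranges were -0.13 to 0.21 for BUB1B, -0.23 to 0.35 for TTK, -0.84 to 0.11 for BUB1 and -0.16 to 0.69 for AURKB. The cause was not tested. CDK1, PLK1, AURKA, INCENP, BIRC5, CDCA8 and SLU7 kept their sign in all settings run. Same-numbered arrays did not deviate together (correlations of -0.381, -0.314 and 0.141). This cannot decide whether they were handled as pairs, since the arrays that stand apart, control replicate 2 and siSLU7 replicate 1, carry different numbers. The labels give same-numbered samples no link beyond the number. With the replicate block no member was called.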
